A study of Mus musculus with 7 samples.

Results

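The JmjC histone demethylases examined here are the products of 10 mouse genes, Kdm2a, Kdm2b, Kdm3a, Kdm3b, Kdm4a, Kdm4b, Kdm4c, Kdm5a, Kdm5b and Kdm6b, chosen by gene symbol among the 49382 genes of the expression table. RNA-seq was performed on wild-type mouse embryonic fibroblasts (MEFs), primary cells from mid-gestation embryos used after a few passages in culture, and each of 7 libraries came from a different condition. Besides the untreated control, these were hypoxia (0.1% oxygen, 10 h), ER stress (1 μM thapsigargin, a blocker of the calcium pump of the endoplasmic reticulum, 10 h), oxidative stress (10 μM sodium arsenite, which reacts with thiols, 3 h), osmotic stress (100 mM added NaCl, 3 h), and depletion of glucose or of glutamine from the medium (10 h each). The labels give no collection time for the control, and treatment and duration cannot be told apart between the 3 h and the 10 h libraries. Each condition had 1 library, so differences could not be compared with replicate variation and no test was run.

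JmjC demethylases are dioxygenases that hold iron and consume molecular oxygen and 2-oxoglutarate to hydroxylate a methyl group on a histone lysine, after which the group leaves as formaldehyde. Because oxygen is a substrate, their activity depends on its supply, and several of their genes, Kdm3a and Kdm4b among them, are known targets of the hypoxia-inducible factor HIF-1. KDM2 proteins act mainly on H3K36, KDM3 proteins on H3K9, KDM4 proteins on both of these, KDM5 proteins on H3K4 and KDM6B on H3K27. RNA levels report neither the amount nor the activity of these enzymes.

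Expression is given as TPM, the length-adjusted share of a transcript in its library, so levels can be compared between genes. Changes are log2 ratios of TPM + 1, which understates changes of weakly expressed genes, and those beyond 2-fold on this scale were counted. All 10 genes averaged 2 TPM or more across the libraries, as did 12909 genes in all, which serve as the background. Sequencing depth is unknown here, since read counts cannot be recovered from TPM. The median log2 change of the 12909 genes was -0.16 in oxidative stress, -0.12 in osmotic stress and within 0.1 of 0 in the other 4 conditions. Mitochondrially encoded genes took between 5.09% and 9.25% of a library. The cells carried fibroblast markers throughout, with 9 of these genes summing to between 6166 TPM in ER stress and 12813 TPM in hypoxia, against 6.76 to 16.6 TPM for 8 rows of macrophage and blood markers 2.94 to 7.31 TPM for 4 endothelial markers and 3.88 to 11.6 TPM for 4 epithelial markers. Muscle markers summed higher, from 50.9 TPM in ER stress to 187 TPM in glucose depletion, through Des and Acta1, while the muscle-defining factors Myod1 and Myog reached at most 0.11 and 0.26 TPM. The part of these markers in the values of the 10 genes was not tested. Ptprc, the pan-leukocyte marker, reached at most 0.28 TPM. In bulk RNA, fewer cells of a type and less RNA per cell cannot be told apart. All 12 HIF targets that served as a check on the hypoxia library were more than 2-fold above control there, with a median log2 change of 2.80. The list was chosen with earlier results of these data known, so the check is not independent. Past 2-fold up and down, the 12 counted 3 and 0 in oxidative stress, 2 and 3 in ER stress and 1 and 1 in glutamine depletion. The counts were 0 and 1 in osmotic stress and 0 and 0 in glucose depletion.

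In hypoxia, 3 of the 10 demethylase genes, Kdm4b, Kdm3a and Kdm6b, were more than 2-fold above the control library, where 3.57% of all 12909 genes were. None was more than 2-fold below it, where 2.64% of all genes were. The 10 genes are part of the family and were chosen with earlier results of these data known. Of 20 other JmjC genes averaging 2 TPM or more, 1 was up past 2-fold in hypoxia. In the other conditions 0 of 10 passed 2-fold in either direction, and the shares of all genes that did were 19.6% in ER stress, 8.78% in oxidative stress, 11.8% in osmotic stress, 4.24% in glucose depletion and 6.41% in glutamine depletion. The median log2 change of the 10 genes in hypoxia was 0.60, beside -0.048 for all genes. Among 8275 protein-coding genes averaging 10 TPM or more, a range that holds all 10 demethylases and a set taken after the values were seen, 1.29% were up by more than 2-fold in hypoxia.

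**Figure D1:**
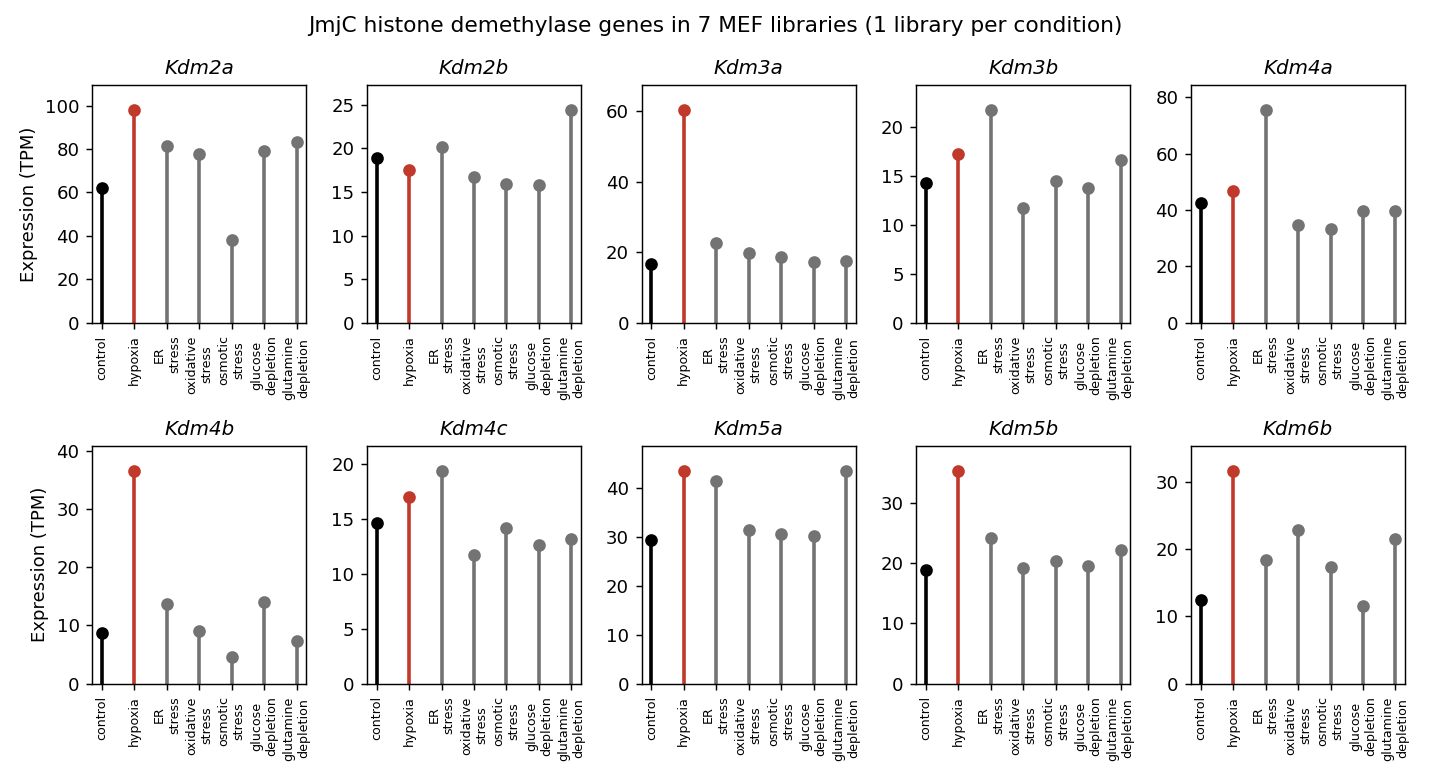
Expression of each of the 10 JmjC demethylase genes (vertical axis, TPM from 0, a separate scale in each panel) in the 7 libraries (horizontal axis), with the control in black, hypoxia in red and the other conditions in grey, and 1 library per point. Kdm3a at 60.2 TPM and Kdm4b at 36.6 TPM in hypoxia stand apart from their other 6 libraries, while Kdm3b, Kdm4a and Kdm4c are highest in ER stress.

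Of the annotated starts of Kdm3a, Kdm5b and Kdm4c, those with a match to the HIF core are shown, because these genes differed in hypoxia (log2 changes of 1.80, 0.87 and 0.21) while HIF binds DNA through a short core. The sequences are from RefSeq on GRCm38.p6, run 5′ to 3′ on the strand of the gene and span 250 bases before to 50 bases after an annotated start. Capitals mark the HIF core, searched as ACGTG or GCGTG on both strands. A palindromic copy matches once on each strand, with overlap.
Kdm3a, chr6:71632868-71633167, minus strand: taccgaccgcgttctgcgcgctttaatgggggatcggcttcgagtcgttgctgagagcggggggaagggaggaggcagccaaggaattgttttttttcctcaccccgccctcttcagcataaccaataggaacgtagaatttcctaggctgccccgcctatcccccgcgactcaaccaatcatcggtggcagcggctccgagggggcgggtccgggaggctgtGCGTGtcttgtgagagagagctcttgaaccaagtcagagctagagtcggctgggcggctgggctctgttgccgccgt
Kdm5b, chr1:134559928-134560227, plus strand: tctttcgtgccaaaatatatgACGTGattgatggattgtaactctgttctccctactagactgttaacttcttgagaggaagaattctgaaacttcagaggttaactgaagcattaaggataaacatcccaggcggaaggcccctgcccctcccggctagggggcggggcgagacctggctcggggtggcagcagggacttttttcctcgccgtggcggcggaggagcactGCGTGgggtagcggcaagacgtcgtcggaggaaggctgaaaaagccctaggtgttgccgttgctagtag
Kdm4c, chr4:74251629-74251928, plus strand: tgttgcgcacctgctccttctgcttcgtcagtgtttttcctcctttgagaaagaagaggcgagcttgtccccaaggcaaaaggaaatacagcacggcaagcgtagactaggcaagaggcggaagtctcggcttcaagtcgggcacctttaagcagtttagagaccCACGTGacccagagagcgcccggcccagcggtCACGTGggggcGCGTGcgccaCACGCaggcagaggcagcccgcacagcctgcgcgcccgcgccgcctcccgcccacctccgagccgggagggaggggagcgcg
The Kdm3a window held 1 match, with its first base at -27 from the start, and the Kdm5b window held 2, at -229 and -19. The Kdm4c window held 6 matches, 4 of them in overlapping pairs, between -85 and -32, and Kdm4c had the smallest log2 change in hypoxia of the 3 genes. The other Kdm4c window, chr4:74242247-74242546 at the start of the annotated gene, held 0 matches, as did 2 of the 3 Kdm3a windows.

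RefSeq promoters of this length were matched for 5 of the 10 genes by symbol, with 11 annotated starts among them. Those of Kdm2a, Kdm3b, Kdm4b, Kdm5a and Kdm6b are not shown. The HIF core stood in 7 of the 11 windows, in 4 of 4 for Kdm2b, 1 of 3 for Kdm3a, 1 of 2 for Kdm4c, 1 of 1 for Kdm5b and 0 of 1 for Kdm4a, beside 43.8% of 32851 mouse promoters. A pair of the Kdm2b windows, chr5:122900301-122900600 and chr5:122900318-122900617, overlap almost wholly and hold the same 3 matches, so this stretch is counted at both starts. Kdm2b, with a match at each start, had a log2 change of -0.10 in hypoxia. The AP-1 motif TGANTCA stood in 3 of the 11 windows (7.81% of all promoters), and the antioxidant element TGACNNNGC in 4 (12.4%). Of these 4, 2 are the overlapping Kdm2b windows, which hold the same copy of the element. The occurrence of these letters in a window is a description and does not show that a factor binds there.

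Among the H3K9 demethylases, Kdm3a was the gene whose hypoxia level lay farthest above its highest other library. KDM3A removes mono- and dimethylation of H3K9. Its level was 16.6 TPM in the control, 60.2 in hypoxia, 22.7 in ER stress, 19.8 in oxidative stress, 18.6 in osmotic stress, 17.1 in glucose depletion and 17.6 in glutamine depletion. Hypoxia was thus the highest library and the other 6 lay close together. The log2 change in hypoxia was 1.80, above 98.2% of all genes, and the next highest library, ER stress, was still 1.37 log2 units below hypoxia. ER stress lasted as long as hypoxia, as did glucose and glutamine depletion, which lay 1.76 and 1.72 log2 units below hypoxia. Kdm3b, the paralog with the same substrate, was at 14.3 TPM in the control, 17.3 in hypoxia, 21.7 in ER stress, 11.7 in oxidative stress, 14.5 in osmotic stress, 13.8 in glucose depletion and 16.7 in glutamine depletion. Its highest library was ER stress, and its log2 change in hypoxia was 0.26. The paralogs were at similar levels in the control, while in hypoxia Kdm3a stood at 60.2 TPM and Kdm3b at 17.3 TPM. Of the 31-base words in Kdm3b transcripts, 25.7% also occur in other genes, mostly in Gm26538, which overlaps it on the opposite strand, so part of its reads cannot be assigned with certainty. Kdm3a shares 0 such words with other genes.

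The KDM4 enzymes, which remove trimethylation from H3K9 and H3K36, differed widely among themselves. Kdm4b was the least expressed of the 10 genes in the control, at 8.71 TPM, and reached 36.6 TPM in hypoxia. Its level was 13.7 TPM in ER stress, 9.07 in oxidative stress, 4.54 in osmotic stress, 14.1 in glucose depletion and 7.32 in glutamine depletion. Hypoxia lay far above the rest and osmotic stress was lowest. The log2 change in hypoxia was 1.95, the largest of the 10 genes and above 98.3% of all genes, and hypoxia exceeded glucose depletion, the next highest library, by 1.32 log2 units. In osmotic stress the change was -0.81. Kdm4a was at 42.5 TPM in the control, 46.6 in hypoxia, 75.3 in ER stress, 34.7 in oxidative stress, 33.2 in osmotic stress, 39.5 in glucose depletion and 39.6 in glutamine depletion. Here ER stress stood above the other libraries (log2 change 0.81) and hypoxia lay 0.68 log2 units below it. Kdm4c was at 14.6 TPM in the control, 17.0 in hypoxia, 19.3 in ER stress, 11.7 in oxidative stress, 14.1 in osmotic stress, 12.6 in glucose depletion and 13.2 in glutamine depletion. Its log2 change was 0.21 in hypoxia, and ER stress was its highest library. Kdm4a, Kdm4b and Kdm4c share 0 words of 31 bases with other genes, themselves included, so reads were not split among the paralogs.

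**Figure D2:**
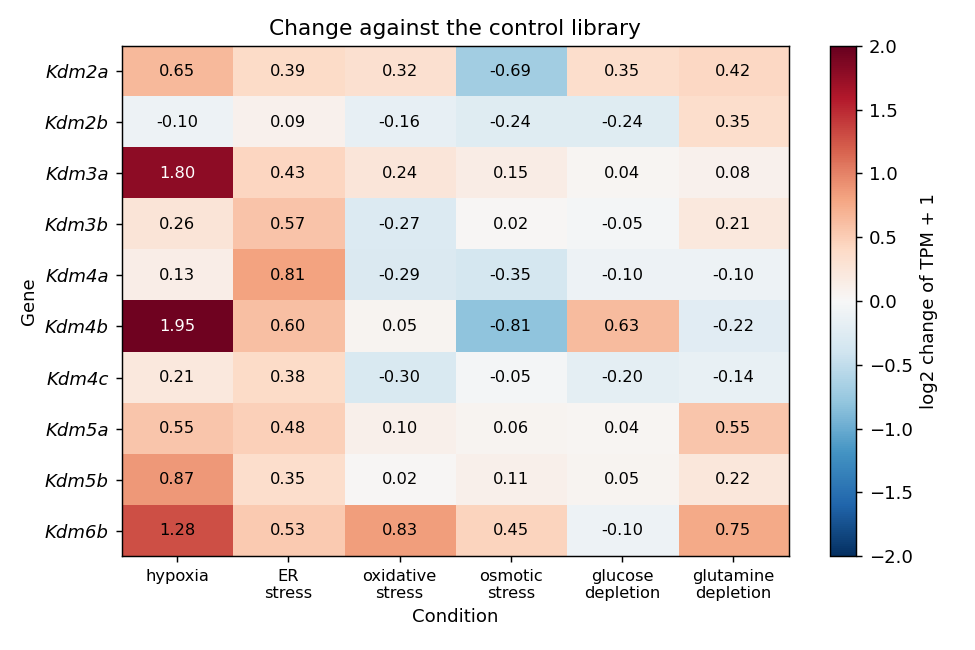
Log2 change of TPM + 1 against the control library (color scale from -2 to 2, red for higher and blue for lower) for the 10 genes (rows) in the 6 conditions (columns), with 1 library per condition. The 3 values above 1 are those of Kdm3a (1.80), Kdm4b (1.95) and Kdm6b (1.28) in hypoxia, and the ER stress column is above 0 in all 10 rows.

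Kdm6b was the only H3K27 demethylase among the 10 genes, and is known as an early response gene of inflammatory signaling. Its level was 12.4 TPM in the control, 31.6 in hypoxia, 18.3 in ER stress, 22.9 in oxidative stress, 17.3 in osmotic stress, 11.5 in glucose depletion and 21.6 in glutamine depletion. Hypoxia was highest, oxidative stress and glutamine depletion came next, and glucose depletion lay just below the control. The log2 changes were 1.28 in hypoxia, 0.83 in oxidative stress and 0.75 in glutamine depletion. Hypoxia exceeded oxidative stress by 0.45 log2 units, against 1.37 for Kdm3a and 1.32 for Kdm4b over their next highest libraries. Kdm6bos, on the opposite strand, shares 208 of the 6924 words of 31 bases in Kdm6b transcripts. Kdm6a, the X-linked paralog outside the 10 genes, was at 8.90 TPM in the control, 8.02 in hypoxia and 22.6 in ER stress, with log2 changes of -0.14 and 1.26.

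The KDM5 enzymes remove methylation from H3K4, a mark of active promoters. Kdm5b was at 18.8 TPM in the control, 35.2 in hypoxia, 24.2 in ER stress, 19.1 in oxidative stress, 20.3 in osmotic stress, 19.6 in glucose depletion and 22.1 in glutamine depletion. The hypoxia library was the highest and the control the lowest, with a log2 change of 0.87, below 2-fold, and 0.53 log2 units between hypoxia and ER stress. Kdm5a was at 29.4 TPM in the control, 43.5 in hypoxia, 41.4 in ER stress, 31.5 in oxidative stress, 30.6 in osmotic stress, 30.3 in glucose depletion and 43.5 in glutamine depletion. Its levels in hypoxia and glutamine depletion were nearly equal (log2 changes of 0.55 in each). Kdm5c, the X-linked paralog outside the 10 genes, was at 37.4 TPM in the control and 49.7 in hypoxia (log2 change 0.40).

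The KDM2 proteins bind unmethylated CpG-rich DNA through a zinc finger and act on H3K36, and KDM2B also brings a Polycomb complex to such sites. Kdm2a was the most abundant of the 10 genes in the control and in hypoxia. It was at 62.0 TPM in the control, 97.8 in hypoxia, 81.4 in ER stress, 77.8 in oxidative stress, 37.9 in osmotic stress, 79.1 in glucose depletion and 83.1 in glutamine depletion. Osmotic stress was the only library below the control (log2 change -0.69), and hypoxia (0.65) exceeded glutamine depletion by 0.23 log2 units. Kdm2b was at 18.9 TPM in the control, 17.6 in hypoxia, 20.1 in ER stress, 16.7 in oxidative stress, 15.9 in osmotic stress, 15.8 in glucose depletion and 24.4 in glutamine depletion. It was the only gene of the 10 below control in hypoxia, and its range over the 7 libraries was 0.59 log2 units. Of its 31-base words, 13.4% also occur in other genes, most often in Rnf34, which overlaps it on the opposite strand.

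Comparing hypoxia with every other library does not depend on the control alone, but each such count rests on the 1 hypoxia library. The TPM of 5 of the 10 genes, Kdm2a, Kdm3a, Kdm4b, Kdm5b and Kdm6b, was highest in hypoxia among the 7 libraries, as it was for 15.7% of all genes. None of the 10 had its lowest value in hypoxia, beside 13.2% of all genes. Kdm3a and Kdm4b were more than 2-fold above the highest of the other 6 libraries, where 1.08% of all genes were. In counts without a threshold, 9 of 10 were above control in hypoxia (42.8% of all genes), 10 of 10 in ER stress (49.9%), 6 in oxidative stress (32.6%), 5 in osmotic stress (36.7%), 5 in glucose depletion (44.5%) and 7 in glutamine depletion (38.3%). These comparisons share the control library.

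**Figure D3:**
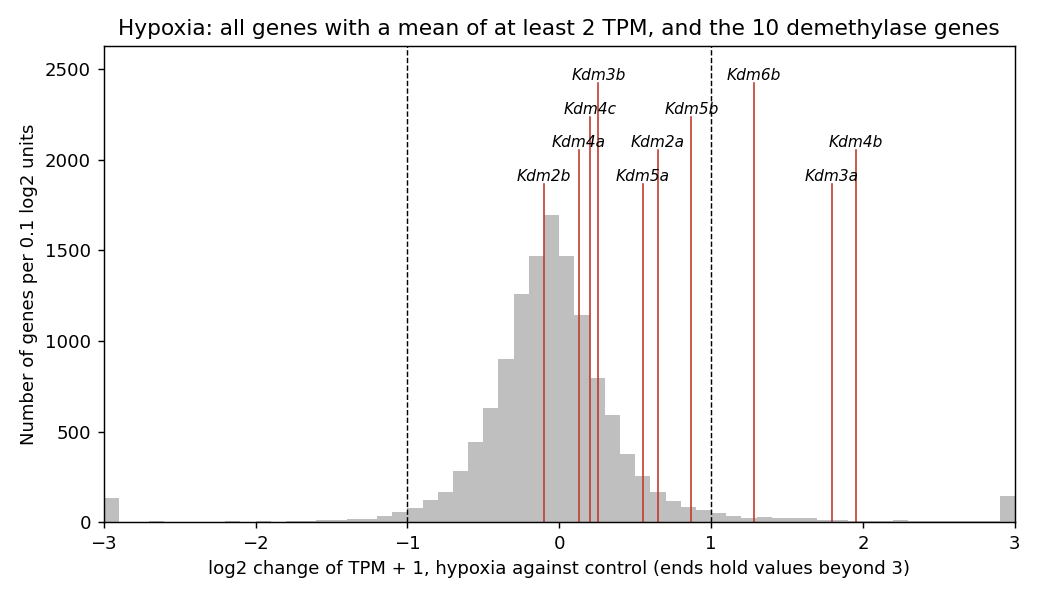
Number of genes (vertical axis, per 0.1 log2 units) by log2 change of TPM + 1 in hypoxia against control (horizontal axis) for the 12909 background genes, in grey, with changes beyond 3 placed in the end bars and red lines at the 10 demethylase genes. Dashed lines mark 2-fold, which Kdm6b, Kdm3a and Kdm4b pass.

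In ER stress all 10 genes lay above the control and none passed 2-fold. Their log2 changes ran from 0.085 for Kdm2b to 0.81 for Kdm4a, with a median of 0.45, beside 0 for all genes. Several related lists lay at similar medians in that library, with 0.57 for the flavin-dependent demethylases, 0.49 for the nucleic acid dioxygenases, 0.45 for the H3K4 methyltransferases and 0.33 for the other JmjC genes. The H3K36, H3K27 and H3K9 methyltransferases were at 0.25, 0.23 and -0.17. In the same library the 9 fibroblast markers had a median log2 change of -0.86 and summed to 6166 TPM, beside 11425 TPM in the control. The part of this shift in the values of the 10 genes was not tested. In glutamine depletion the median of the 10 genes was 0.21, in oxidative stress 0.036, in glucose depletion -0.0034 and in osmotic stress -0.013. The median of all genes was below 0 in oxidative and osmotic stress. After centring on it, the number of the 10 genes above control stayed at 6 in oxidative stress and went from 5 to 6 in osmotic stress. Centring leaves as many of all genes above 0 as below it, so 6 of 10 is near the background. The osmotic stress changes of Kdm4b and Kdm2a were then -0.69 and -0.57.

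The 10 genes together took 238 TPM in the control and 403 TPM in hypoxia, the highest sum of the 7 libraries. The lowest was 207 TPM in osmotic stress. By substrate, the H3K9 pair Kdm3a and Kdm3b went from 30.9 to 77.5 TPM in hypoxia, the H3K4 pair from 48.2 to 78.7, the KDM4 genes from 65.9 to 100.2 (108 in ER stress, their highest), the H3K36 pair from 80.9 to 115 and Kdm6b from 12.4 to 31.6. Kdm3a took 6.98% of the sum in the control and 14.9% in hypoxia, and Kdm4b 3.66% and 9.07%. Kdm3a thereby moved from rank 6 to rank 2 among the 10 genes, and Kdm4b from rank 10 to rank 5. The share of Kdm4a was 17.9% in the control and 11.6% in hypoxia, with its own TPM at 42.5 and 46.6. With 1 library each, neighbors in these orders cannot be set apart from the variation between libraries.

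Other proteins with a JmjC domain, some of them hydroxylases of other proteins or without known activity, were examined for comparison. The list also held further histone demethylase genes, among them Kdm5c, Kdm5d, Kdm6a, Kdm7a, Phf2 and Phf8. In hypoxia these named genes had log2 changes of 0.40, -0.11, -0.14, 0.37, -0.062 and 0.012, in that order. The list therefore does not set demethylases against proteins without this activity. Of 21 listed genes, 20 averaged 2 TPM or more. In hypoxia 1 of these was up past 2-fold and 0 were down, and their median log2 change was -0.025. That count is near the shares of all genes, 3.57% up and 2.64% down. The gene that passed was Jmjd6, a lysyl hydroxylase of splicing factors, which went from 56.2 to 138 TPM (log2 change 1.29). Jarid2, a catalytically inactive partner of Polycomb repressive complex 2, went from 5.20 to 10.6 TPM in hypoxia, a log2 change of 0.91. It was at 9.89 TPM in oxidative stress (0.81) and 2.39 TPM in osmotic stress (-0.87). In ER stress 3 of the 20 were up, namely Kdm7a, Kdm6a and Riox1, and Hr was down, a share close to the 19.6% of all genes past 2-fold in that library. Kdm7a, Riox1 and Hr were picked for these values. The flavin-dependent demethylases, which need no iron or 2-oxoglutarate, had log2 changes in hypoxia of 0.42 (Kdm1a) and 0.14 (Kdm1b).

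Of 7 H3K4, 6 H3K9, 4 H3K27 and 6 H3K36 methyltransferase genes or complex subunits, 0 passed 2-fold in either direction in hypoxia. With 3.57% of all genes up and 2.64% down, a count of 0 in lists of this size is near the background. The lists had median log2 changes of 0.072, -0.27, 0.23 and 0.18. The largest changes were those of Smyd3 (-0.84) among the H3K4 genes, Setdb2 (-0.85) for H3K9, Suz12 (0.50) for H3K27 and Setd2 (0.35) for H3K36. Summed over each list, the H3K9 writers were at 158 TPM in the control and 138 in hypoxia. In the other 5 conditions they were between 118 and 138 TPM, with ER stress (138) and glucose depletion (137) close to hypoxia. The H3K36 writers were at 182 TPM in both libraries.

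**Figure D4:**
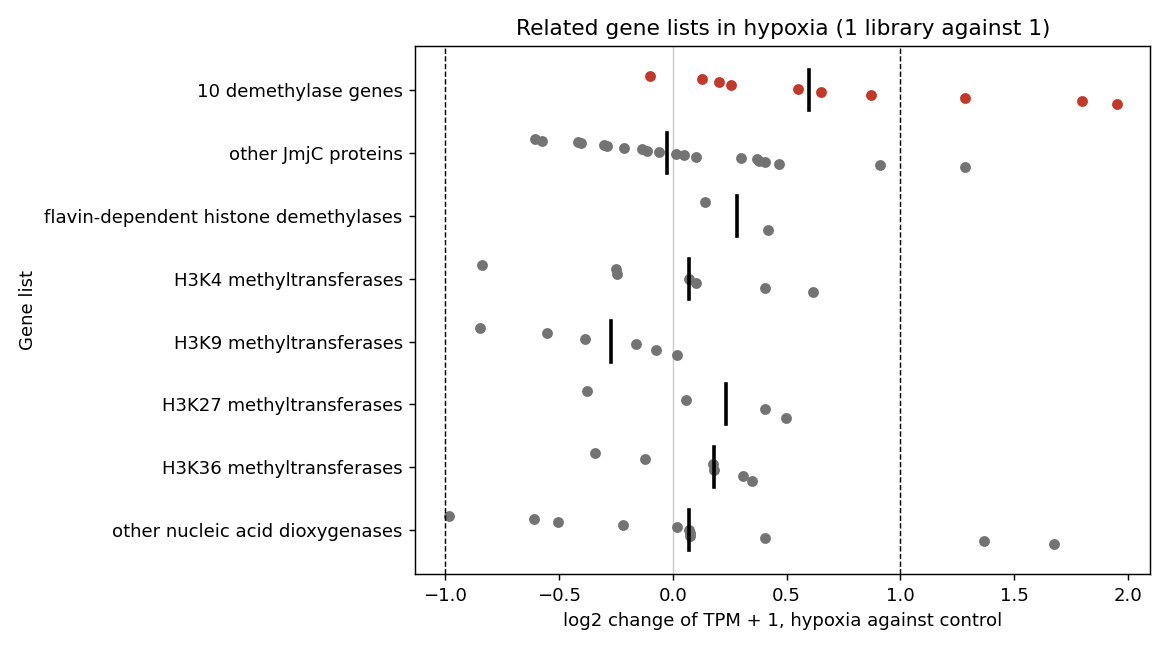
Log2 change of TPM + 1 in hypoxia against control (horizontal axis) for the genes of 8 lists (vertical axis), with the 10 demethylase genes in red, other genes in grey, black bars at the medians and dashed lines at 2-fold; the height of a point within its row has no meaning. The median of the 10 genes is 0.60, and those of the methyltransferase lists lie between -0.27 and 0.23.

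The genes with expression patterns most like those of Kdm4b, the gene of the 10 with the widest range (2.76 log2 units), were Dap3, 2510039O18Rik, Hilpda, Zdhhc9 and Amz2, with Pearson r of log2(TPM + 1) from 0.94 to 0.975 over the 7 libraries among 8818 genes averaging 10 TPM or more. Hilpda, a lipid droplet protein induced by hypoxia, went from 16.1 TPM in the control to 84.9 in hypoxia, a log2 change of 2.33, while Dap3 went from 65.7 to 95.9 (0.54). For Kdm6b they were the pseudogene Scp2-ps2, Ash1l, Homer1, Gpbp1l1 and Zmiz1, with r from 0.888 to 0.943. Scp2-ps2 was at 0 TPM in the control and 0.00028 in glucose depletion, but at 40.0 in hypoxia and 34.3 in oxidative stress. In ER stress, osmotic stress and glutamine depletion it was at 14.1, 8.53 and 12.6 TPM, and the cause of these jumps was not tested. Homer1 was at 13.1 TPM in the control, 31.8 in hypoxia, 30.9 in oxidative stress and 31.6 in glutamine depletion. These values describe 7 libraries that share a culture system, and no p-value applies to them.

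All 10 genes are annotated as protein-coding on GRCm38 (GENCODE M21). Kdm3a lies on chromosome 6 from 71588972 to 71632990, Kdm4b on chromosome 17 from 56326062 to 56402870 and Kdm6b on chromosome 11 from 69398508 to 69413675. Kdm5b lies on chromosome 1 from 134560171 to 134635285, Kdm5a on chromosome 6 from 120364124 to 120444574 and Kdm2a on chromosome 19 from 4314419 to 4398285. Kdm4a and Kdm4c are both on chromosome 4, from 118136957 to 118180043 and from 74242497 to 74405860. Kdm2b is on chromosome 5 from 122870665 to 122989823, and Kdm3b on chromosome 18 from 34777047 to 34838660.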

How the data were processed

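Libraries were made from poly(A) RNA with a stranded kit and sequenced in pairs. The authors quantified reads with kallisto 0.43.1 at default settings against Ensembl cDNA of GRCm38, and the deposited table holds gene-level TPM. Default kallisto ignores strand, and antisense partners that share sequence cannot be told apart. Here log2(TPM + 1) was compared between libraries. Genes averaging 2 TPM or more over the libraries were kept, and changes of more than 2-fold were counted, with no test. The 10 genes and all lists were chosen with earlier results of these data known. Named beyond them were genes past 2-fold in hypoxia, the largest change of each list in hypoxia, and Kdm1a, Kdm1b, Kdm5c, Kdm6a and Jarid2, plus the genes most like Kdm4b and Kdm6b. Alkbh1, Fto, Kdm5d, Kdm7a, Phf2, Phf8, Riox1, Hr and the cell type markers were named after their values were seen. Locations came from GENCODE M21, matched by Ensembl identifier. Words of 31 bases, the default length in kallisto, were counted in GENCODE M21 transcripts on both strands, which differ from the cDNA set of the authors. Promoters came from RefSeq (GRCm38.p6). Folds and counts were checked on a simulated table. Scripts ran under Python 3.11.15 with pandas 2.3.3 and numpy 2.4.6, and figures were drawn with matplotlib 3.10.9. Other pseudocounts, filters, thresholds, centring and a different reference library were tried. A list of metabolic genes is not reported here.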

Additional observations from a re-analysis of the deposited data

How the results depend on the processing

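No paired analysis was possible because each condition had 1 library. The counts of demethylase genes past 2-fold were the same with pseudocounts of 0.1 and 5 TPM. They also stayed the same after centring on the median of all genes and without mitochondrially encoded genes. Removing the 2 TPM cutoff or raising it to 10 TPM could not change the counts. The lowest mean of the 10 genes was 13.4 TPM, for Kdm4b, so every gene stays in. At 3-fold the counts were 2 in hypoxia, where Kdm6b no longer passed, and 0 elsewhere. At 1.5-fold the counts were 5 in hypoxia, 2 in ER stress, 1 in oxidative stress, 2 in osmotic stress, 1 in glucose depletion and 1 in glutamine depletion, where the lower threshold is itself the cause. Shares of all genes were not computed at 3-fold, at 1.5-fold or with another reference library, so such counts have no background beside them. With the glucose depletion library as the reference, 2 genes passed 2-fold in osmotic stress, Kdm2a at -1.04 and Kdm4b at -1.44, and the cause was not tested. Of 290 recomputed log2 changes, the other 288 kept their side of 2-fold and 0 changed from past it to the opposite sign. The change of Kdm3a in hypoxia ranged from 1.59 to 1.85, that of Kdm4b from 1.32 to 2.06 and that of Kdm6b from 1.07 to 1.38. The number highest in hypoxia was the same without mitochondrially encoded genes. Leaving out the 3 h libraries or the control could not change it, since no demethylase gene was highest in any of those libraries.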

Other observations

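Related oxygen-dependent enzymes of nucleic acids were uneven in hypoxia. Of 12 listed genes, 11 averaged 2 TPM or more, with a median log2 change of 0.072. Of these, 2 were more than 2-fold above control and 0 below, beside 3.57% and 2.64% of all genes. Tet2, which oxidizes 5-methylcytosine in DNA, went from 3.08 TPM in the control to 12.0 TPM in hypoxia (log2 change 1.68), and was at 6.54 TPM in oxidative stress and 1.23 TPM in osmotic stress. Alkbh5, an RNA demethylase, went from 24.3 to 64.3 TPM (1.37), and was at 45.7 TPM in ER stress (0.88) and 39.0 TPM in osmotic stress (0.66). Fto, a related enzyme picked after its values were seen, had 45.6 TPM in the control against 48.1 TPM in hypoxia. Alkbh1 was at 24.7 and 12.0 TPM (-0.98).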
